A study of Mus musculus with 4 samples.

Results

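Mx1, Mx2, Rsad2 and Cmpk2 are 4 antiviral genes of interferon-treated or virus-infected cells, and they were taken here as the genes to which the platform annotation assigns a probe by one of these symbols. The 4 genes are set against all 22180 genes measured. Each had 1 probe, and no probe shared between several genes carried any of the 4 symbols. RNA came from B16-OVA cells, a mouse melanoma line derived from C57BL/6 mice that carries an ovalbumin transgene. On 2 arrays the cells were labelled mock transfected, and on 2 arrays they were labelled transfected with AT90ES, which the study's texts tie to a 90mer of double-stranded DNA delivered with Lipofectamine 2000 for 6 hours. All 4 arrays carry the same treatment text and the same medium, DMEM with 10% serum, so it is unclear what the mock cells were given, and an effect of the DNA cannot be told apart from one of transfection. All values are log2 levels from deposited RMA values, and nothing in the labels says that the replicates were separate cultures, so p-values may measure technical spread alone.

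Mx proteins are large GTPases related to dynamin that assemble around viral components and block viruses such as influenza. Rsad2 encodes viperin, a radical SAM enzyme of the endoplasmic reticulum and lipid droplets that uses an iron-sulphur cluster to turn CTP into a chain-terminating nucleotide. Cmpk2 encodes a mitochondrial kinase that phosphorylates UMP, CMP and their deoxy forms, and the gene lies next to Rsad2. Transcription of all 4 is driven by type I interferon through a complex that includes STAT2 and IRF9 and binds an interferon-stimulated response element (ISRE), and some of them also by IRF3 directly. Many inbred mouse strains, C57BL/6 included, carry Mx1 and Mx2 alleles that do not encode a full-length protein. The RefSeq gene table of GRCm38.p6, a C57BL/6J assembly, lists both Mx1 and Mx2 as transcribed pseudogenes and both Rsad2 and Cmpk2 as protein coding. The arrays measured RNA, so the values below say nothing of Mx protein.

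Because the adjacent genes Rsad2 and Cmpk2 rose together (below), the RefSeq sequence of the 250 bases before the start of each is shown, 5′ to 3′ on the gene's own strand. Of the 4 genes, 2 matched the promoter table by symbol, and Mx1 and Mx2 did not. Capitals mark the match to the ISRE core. The window of Rsad2, a gene on the minus strand, is chr12:26456453-26456702 (GRCm38.p6). That of Cmpk2, on the plus strand, is chr12:26468965-26469214, so the genes point away from each other.
Rsad2: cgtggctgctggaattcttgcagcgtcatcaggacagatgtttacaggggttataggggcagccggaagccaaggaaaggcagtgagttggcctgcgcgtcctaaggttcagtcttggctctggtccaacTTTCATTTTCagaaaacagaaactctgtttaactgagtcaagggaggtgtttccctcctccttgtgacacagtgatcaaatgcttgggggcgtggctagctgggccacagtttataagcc
Cmpk2: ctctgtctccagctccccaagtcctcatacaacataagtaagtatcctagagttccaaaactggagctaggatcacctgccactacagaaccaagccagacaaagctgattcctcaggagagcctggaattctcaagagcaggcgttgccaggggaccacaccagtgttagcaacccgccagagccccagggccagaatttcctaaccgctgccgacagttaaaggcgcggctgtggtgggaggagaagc

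The ISRE core was searched on both strands as TTTC, then any 2 bases, then TTTC. The Rsad2 window held 1 match, TTTCATTTTC, at positions -120 to -111 counted from the start, and the Cmpk2 window held no match, which says only that these letters are not in this window. Of the 32851 RefSeq promoter windows of the same length, 978 (2.98%) held at least 1 such match. Of 33 genes with a window among 40 listed interferon-stimulated antiviral genes, 10 (30.3%) had a match in any of their windows. That is a share of genes and the 2.98% is a share of windows, so they differ in unit. The sites TTCNNNGAA, where N is any base, the core of the gamma-activated site, and TATAAA, the TATA box, were searched in the same way and are held by 7.02% and 12.4% of all windows. Neither window held TTCNNNGAA, and TATAAA was found on the opposite strand of the Rsad2 window alone, at positions -10 to -5, where it did not overlap the ISRE match. A match is a description of the sequence and not a measured binding site.

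All 4 genes were higher in AT90ES cells. Rsad2 was 19.0-fold and Cmpk2 5.60-fold higher (n = 2 arrays per group, limma). Mx2 and Mx1 were near background in mock cells, and measured against a background level they were at least 10.6-fold and at least 2.46-fold higher; against their own mock levels the folds were 21.3 and 7.16. Each gene passed an adjusted p of 0.05 in limma's test over all genes, which called 92 of 22180 genes higher (0.415%). Both AT90ES arrays lay above both mock arrays for each of the 4, as they did for 3924 of all genes (17.7%). By size of rise among all genes, Rsad2 ranked 7 and Cmpk2 23, among rises that include genes starting near background. An exact permutation test of 2 against 2 arrays cannot give a two-sided p under 0.333, so no such test was used.

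**Figure D1:**
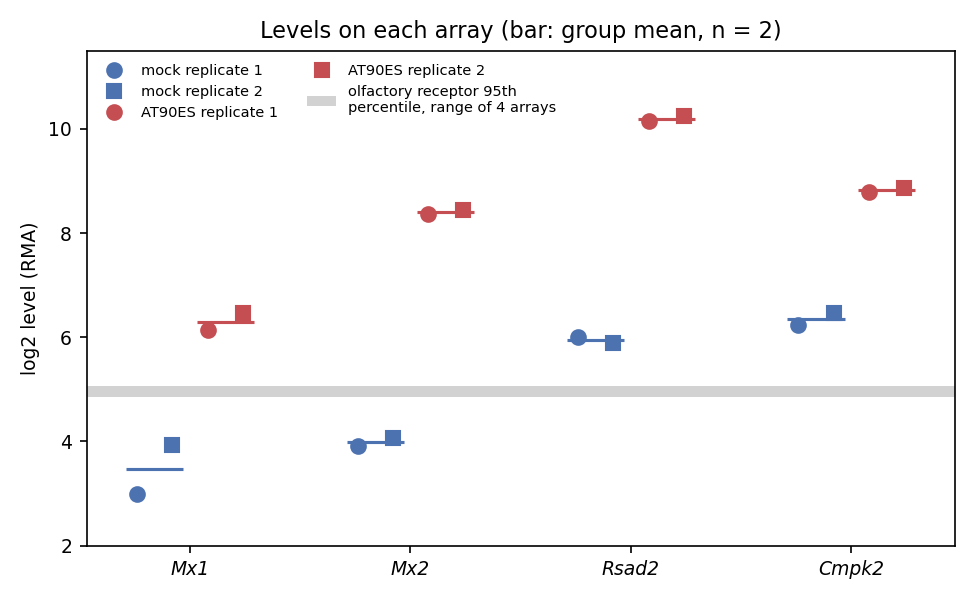
Log2 level (RMA) of each gene on each array, with circles for replicate 1, squares for replicate 2, blue for mock, red for AT90ES and a bar at the mean of each group; the grey band is the range over the 4 arrays of the 95th percentile of olfactory receptor genes, from 4.85 to 5.07. Mx1 and Mx2 lie under the band on both mock arrays, Rsad2 and Cmpk2 lie above it on every array, and the mock arrays of Mx1 stand 0.95 apart.

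Mx2 rose from a level near background. Its log2 level was 3.91 and 4.08 in mock cells and 8.37 and 8.44 after AT90ES. The groups did not overlap, and the nearest arrays of the 2 groups were 4.29 apart against 0.17 between the mock arrays. The log2 fold change was 4.41 ± 0.13 (SE; 95% interval 4.10 to 4.73; limma adjusted p = 0.00031). To set a level for background, the levels of 1105 olfactory receptor genes, taken as silent in melanoma cells, were ordered on each array and their 95th percentile was used. Mx2 lay under it on both mock arrays and above it on both AT90ES arrays, so its starting level and the exact size of its rise are uncertain. Measured against that percentile in place of the mock levels, Mx2 was at least 10.6-fold higher.

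Mx1, the gene whose protein acts in the nucleus against influenza virus in strains that make it, had a less certain rise. Log2 levels of Mx1 were 2.99 and 3.94 in mock cells and 6.14 and 6.46 after AT90ES. Both AT90ES arrays were higher than both mock arrays, by 2.21 to 3.47 depending on the pair, and mock replicate 1 was the lowest of the 4. The mock arrays were 0.95 apart, a gap reached by 0.343% of all genes and by 0.658% of the genes under the background percentile on both mock arrays. The log2 fold change was 2.84 ± 0.32 (SE; 95% interval 2.05 to 3.63; limma adjusted p = 0.0413). Like Mx2, Mx1 was under the olfactory receptor percentile on both mock arrays and above it on both AT90ES arrays, and against that percentile it was at least 2.46-fold higher. The call was lost without AT90ES replicate 1 (adjusted p = 0.174) and without AT90ES replicate 2 (adjusted p = 0.217), and also where every probe was tested separately (adjusted p = 0.217) or quantile normalization was repeated (adjusted p = 0.0572).

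Rsad2 started from a level above background. On the mock arrays Rsad2 stood at log2 levels of 6.00 and 5.90, and on the AT90ES arrays at 10.15 and 10.25. The arrays of each group lay 0.10 apart and the groups were separated by at least 4.14. The log2 fold change was 4.25 ± 0.12 (SE; 95% interval 3.95 to 4.55; limma adjusted p = 0.00031). Rises between single arrays ranged from 4.14 to 4.35. How the rise of Rsad2 compares in size with that of Mx2 is not settled, since the bound for Mx2 (at least 10.6-fold) lies under the 19.0-fold of Rsad2 and its measured fold of 21.3 lies above it.

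Cmpk2, the neighbour of Rsad2, rose less. Mock cells gave log2 levels of 6.23 and 6.46, and AT90ES cells 8.80 and 8.87. The groups did not overlap, and the AT90ES arrays were closer to each other (0.07 apart) than the mock arrays (0.23 apart). The log2 fold change was 2.49 ± 0.13 (SE; 95% interval 2.15 to 2.82; limma adjusted p = 0.00311). Between single arrays the rise ranged from 2.34 to 2.64, under every such value of Rsad2. The rise of Rsad2 exceeded that of Cmpk2 by 1.76 on the log2 scale, a value for which no test between genes was made. The rise of Mx1 is not placed above or below that of Cmpk2, since its bound (at least 2.46-fold) lies under 5.60-fold and its measured fold of 7.16 above it.

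**Figure D2:**
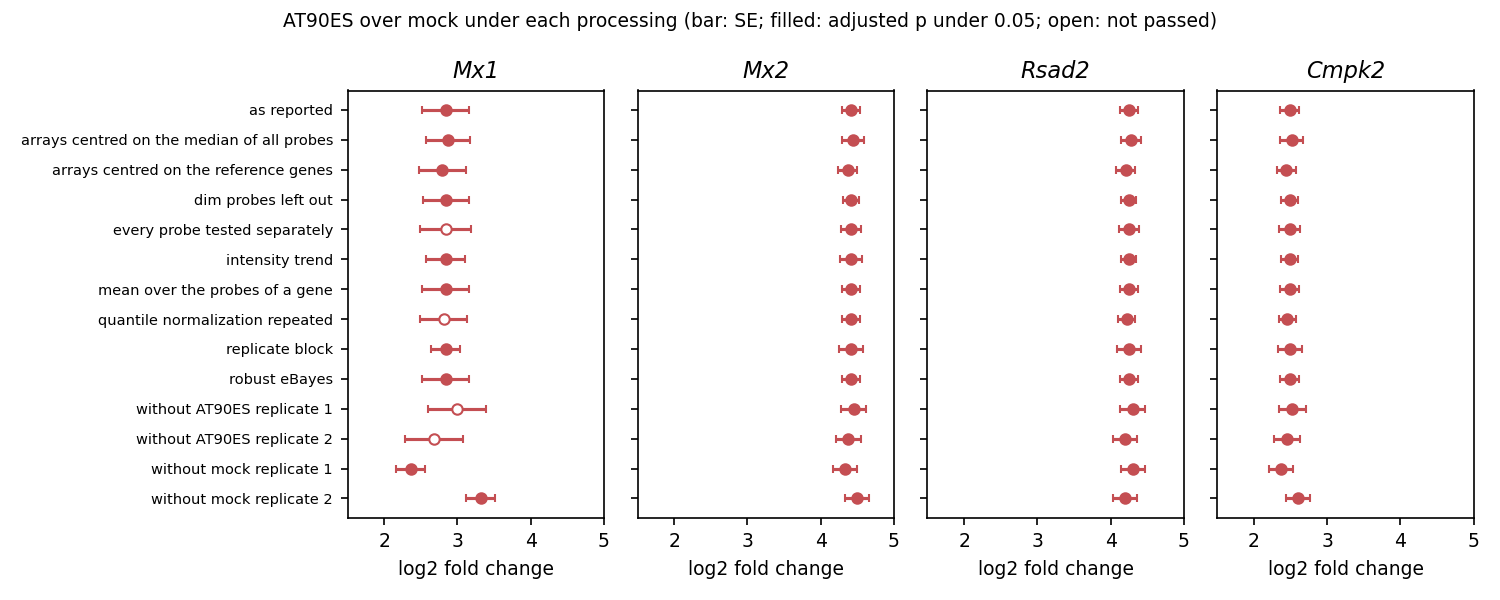
Log2 fold change (AT90ES over mock) of the 4 genes as reported and under each of 13 other ways of processing, with bars for the SE and filled points for an adjusted p under 0.05. Mx2, Rsad2 and Cmpk2 pass in all 13, Mx1 passes in 9, and the fold changes of Mx1 run from 2.36 to 3.31.

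Genes around the members had log2 fold changes of 0.57 or less. In annotation order, 5 measured genes on each side of each pair and the gene between Mx1 and Mx2 were examined. Fam3b, which lies between Mx1 and Mx2 and encodes a secreted protein of pancreatic islets, stood at 0.04 ± 0.13 on the log2 scale (adjusted p = 0.96). On the other sides of that pair, Bace2, an aspartic protease made in pigment cells and well above background, had 0.09 ± 0.11 and Tmprss2, a surface serine protease, -0.09 ± 0.16. Fam3b and Tmprss2 lay under the olfactory receptor percentile on all 4 arrays, as did 4 of the 11 neighbours in all, and a change near background could go unseen there. The 11 neighbours of the Mx genes ran from -0.26 to 0.57, with Zbtb21 highest at 0.57 ± 0.14. No neighbour of the Mx genes passed in limma, and at an unadjusted p under 0.05 there was 1, Zbtb21 (adjusted p = 0.367, and 0.0172 with an intensity trend in the spread).

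The 10 neighbours of Rsad2 and Cmpk2 on chromosome 12, of which 2 lay under that percentile on all 4 arrays, ran from -0.40 to 0.28, against rises of 4.25 and 2.49 for the pair. Rnf144a, a ubiquitin ligase gene next to Rsad2, had a log2 fold change of 0.28 ± 0.15, and Sox11, a transcription factor gene next to Cmpk2, -0.30 ± 0.16. Id2, an inhibitor of helix-loop-helix factors, stood at -0.21 ± 0.12. Of these 10 genes, 0 passed in limma and 0 had an unadjusted p under 0.05. Both AT90ES arrays lay above both mock arrays for 2 of the 11 and 3 of the 10 neighbours, against 17.7% of all genes.

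**Figure D3:**
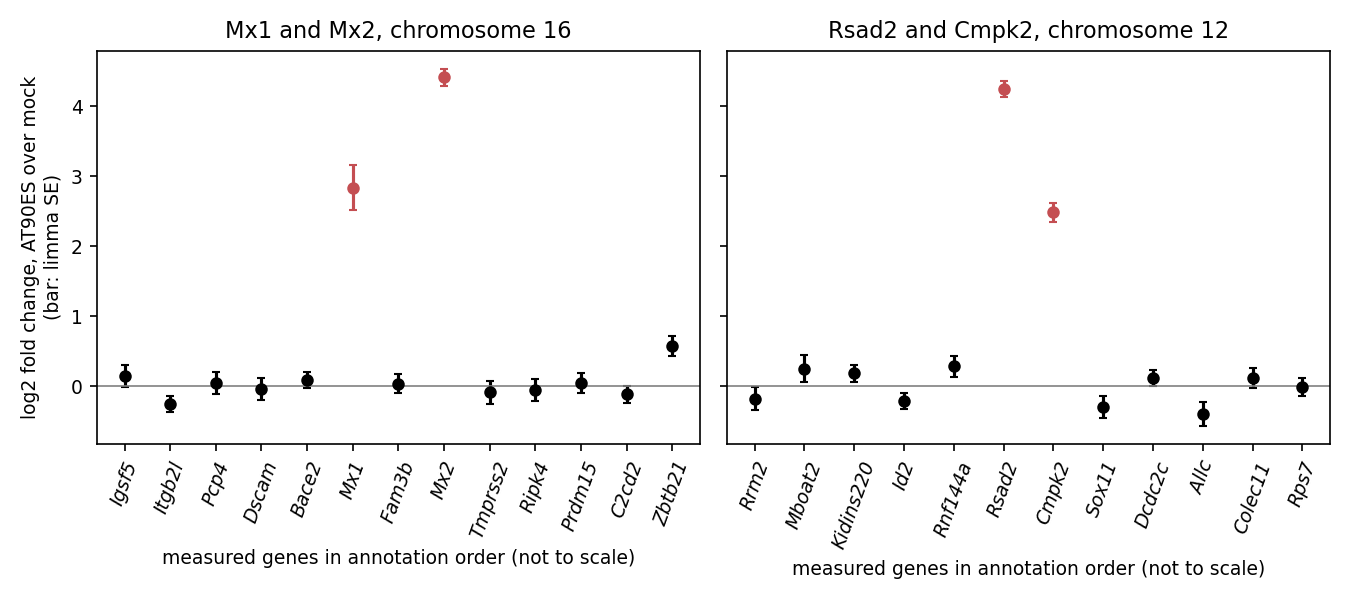
Log2 fold change (AT90ES over mock, bars for limma's SE) of Mx1 and Mx2 with their neighbours on chromosome 16, and of Rsad2 and Cmpk2 with theirs on chromosome 12, in annotation order and not to scale. The 4 members (red) lie between 2.49 and 4.41 and every neighbour (black) lies at or under 0.57.

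Other antiviral genes that interferon induces were also higher in part. Of 37 measured members of a list of 40 that leaves out the 4 genes above, 23 rose and 14 did not pass in limma, and the list's median log2 fold change was 1.62 against -0.02 for all genes. At an unadjusted limma p under 0.05, 28 of the 37 were higher and 1, Oas2, was lower, against 999 and 1017 of all 22180 genes. Under the background percentile on all 4 arrays lay 4 of the 37, where a change could go unseen. In 30 of the 37 both AT90ES arrays lay above both mock arrays, against 17.7% of all genes. The largest rises were those of Ifit1, which binds foreign RNA, at 6.05 ± 0.12, Ifih1, a sensor of double-stranded RNA, at 5.69 ± 0.24, Isg15, a ubiquitin-like modifier, at 4.16 ± 0.14, and Parp14, an ADP-ribosyltransferase, at 3.64 ± 0.16. Ifih1 was above the background percentile on 1 of the 2 mock arrays, as were Oasl1, Oasl2 and Usp18. Ifit3b, Ddx60 and Oas1b, named like Oasl1 and Oasl2 for their mock levels, were above it on neither. The sizes of these rises are less certain. The rise of Rsad2, at 4.25, was close to that of Isg15. Samhd1, which degrades deoxynucleotides, stood at 0.10 ± 0.11. The count of risen genes was 12 with every probe tested separately, 13 without AT90ES replicate 1, 14 without AT90ES replicate 2 and 13 without mock replicate 2.

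**Figure D4:**
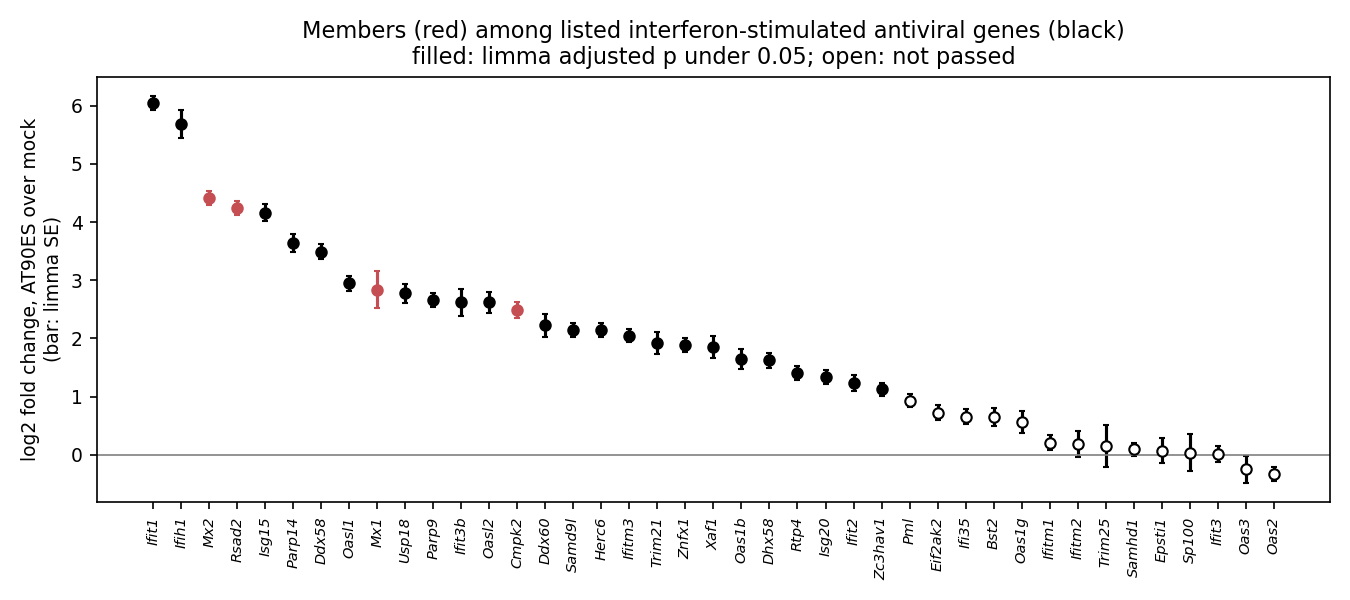
Log2 fold change (AT90ES over mock, bars for limma's SE) of Mx1, Mx2, Rsad2 and Cmpk2 (red) among the 37 measured genes of the interferon-stimulated antiviral list (black), ordered by size, with filled points past an adjusted p of 0.05 and open points not. Rsad2 at 4.25 lies next to Isg15 at 4.16 and Cmpk2 at 2.49 lies among genes that passed. The points of Mx1 and Mx2 are measured from mock levels near background. Those of Ifit3b, Ddx60 and Oas1b, which passed, also start under the background percentile on both mock arrays.

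The pathway upstream of the 4 genes was represented by 15 measured members of a list of 17, of which 3 rose and 12 did not pass in limma. The 3 were Usp18, a feedback inhibitor that removes ISG15 and blocks the interferon receptor, at 2.78 ± 0.16, Stat2 at 1.98 ± 0.12 and Irf9 at 1.26 ± 0.13 (limma adjusted p = 0.00354, 0.00389 and 0.0308). Usp18 is also counted in the antiviral list above. It was above the background percentile on 1 of the 2 mock arrays, so the size of its rise is less certain. Stat2 stood at log2 levels of 5.89 and 5.90 in mock cells and 7.81 and 7.95 after AT90ES. For Irf9 the levels were 5.62 and 5.68 in mock cells and 7.02 and 6.80 after AT90ES. Both genes encode parts of the complex that binds the ISRE, and neither had overlapping groups. The call of Irf9 was lost with any one array left out (limma adjusted p 0.119 to 0.219) and with every probe tested separately (0.188). The list had 5 risen genes with dim probes left out and 5 with an intensity trend. At an unadjusted limma p under 0.05, 7 of the 15 were higher, against 999 of all 22180 genes. Both AT90ES arrays lay above both mock arrays for 8 of the 15, against 17.7% of all genes. Irf1 and Irf2, named after their values were seen, stood at 1.23 ± 0.16 and 0.71 ± 0.11 (limma adjusted p = 0.0622 and 0.140). Irf7, an amplifier of the interferon response, changed by 0.35 ± 0.12 on the log2 scale without passing (adjusted p = 0.471). Ifnb1, which encodes interferon beta, was at log2 levels of 3.15 and 3.29 in mock cells and 2.89 and 3.05 after AT90ES, under the olfactory receptor percentile on all 4. Its log2 fold change was -0.25 ± 0.13 (adjusted p = 0.632).

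Listed genes for relatives and partners of the 4 proteins did not pass, but the lists leave out the Gbp family of GTPases. Gbp7 and Gbp3 of that family, named for their pattern (below), passed in limma (adjusted p = 0.000881 and 0.00248). Their log2 fold changes were 4.36 ± 0.17 and 3.84 ± 0.19. Their mock levels lay under the olfactory receptor percentile, so the sizes of these rises are uncertain. The dynamin superfamily outside the Mx and Gbp families holds GTPases and related EHD ATPases that remodel membranes. For it, limma called 0 of 13 measured genes and 1 was higher at an unadjusted p under 0.05. Their fold changes ran from -0.29 to 0.44 on the log2 scale, with Dnm1l, the GTPase of mitochondrial fission, at -0.02 ± 0.12 and Ehd3, an endosomal member, at 0.14 ± 0.13. All 13 lay above the olfactory receptor percentile on every array.

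Viperin takes its iron-sulphur cluster from the cytosolic assembly machinery. Of 8 measured genes of that machinery 0 passed in limma and 0 had an unadjusted p under 0.05, with log2 fold changes from -0.17 to 0.07. Ciao1, the platform of the targeting complex, stood at 0.06 ± 0.14, Ciao2a at 0.02 ± 0.13 and Nubp2, part of the scaffold, at -0.01 ± 0.13. The 7 other radical SAM enzymes ran from -0.24 to 0.14, with 0 past the threshold in limma and 0 at an unadjusted p under 0.05. Elp3, which modifies transfer RNA, stood at -0.14 ± 0.12 and Mocs1, an enzyme of molybdenum cofactor synthesis, at 0.07 ± 0.12.

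Among 8 genes of reported viperin partners and their complexes, limma called 0, and 1 was higher at an unadjusted p under 0.05. Vapa, a membrane tether of the endoplasmic reticulum, stood at 0.07 ± 0.12, Fdps, which makes farnesyl diphosphate, at -0.10 ± 0.12 and Hadha, of mitochondrial fatty acid oxidation, at 0.20 ± 0.12. The median of these 8 was 0.10.

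The other nucleoside monophosphate kinases did not pass. Cmpk1, the cytosolic kinase for the same pyrimidine monophosphates, stood at 0.12 ± 0.19 on the log2 scale (adjusted p = 0.898), Dtymk, which phosphorylates dTMP, -0.20 ± 0.12 and Guk1, which phosphorylates GMP, -0.05 ± 0.14. Limma called 0 of the 8 measured kinases and 1 was higher at an unadjusted p under 0.05. For 23 measured genes of pyrimidine and deoxynucleotide supply the median was -0.14 and the range -0.51 to 0.33. Limma called 0 of the 23, while 2 were higher and 4 lower at an unadjusted p under 0.05, and 3 were lower with an intensity trend, Rrm1 (adjusted p = 0.0308) and Tk1 (0.00198) among them. Rrm1, the large subunit of ribonucleotide reductase, stood at -0.23 ± 0.11 and Uck2, a uridine and cytidine kinase, at -0.14 ± 0.12. The lowest value was that of Tk1, the cytosolic thymidine kinase, named after its value was seen, at -0.51 ± 0.11 (adjusted p = 0.306 without the trend).

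The pattern over the 4 arrays was compared between genes as the distance, in log2 units, between values centred on each gene's own mean. Mx2 and Rsad2 were 0.26 apart, closer than any other pair of the 4 genes, which lay 0.64 to 1.93 apart. The genes outside the 4 most like Rsad2 were Isg15 (0.20), Gbp7, an interferon-induced GTPase (0.26), and Gbp3 of the same family (0.62). The same 3 genes came out for Mx2, at 0.41 for Isg15, 0.42 for Gbp7 and 0.64 for Gbp3. For Cmpk2 they were Btg2, an antiproliferative gene (0.22), Plk2, a stress-responsive kinase (0.23), and Csf1, the macrophage growth factor (0.25). The nearest genes to Mx1 were more distant, with Plk2 at 0.64, Irgm2, an immunity-related GTPase that itself did not pass (limma adjusted p = 0.0622), at 0.65 and Parp9, a partner of a ubiquitin ligase, at 0.76. The distances of Mx1 and Mx2 rest on mock levels near background. With 2 arrays per group these distances are a description, and no function is read from them.

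The cells carried the markers of their line. All 7 pigment cell markers lay above the olfactory receptor percentile on all 4 arrays, and their summed log2 level was 76.5 to 77.2 in mock and 76.0 to 76.5 in AT90ES cells. Limma called 0 of the 7, and 1 was called lower with an intensity trend. At an unadjusted p under 0.05, 1 was lower, Mitf, named after its value was seen, at -0.34 ± 0.11 on the log2 scale. Of 25 measured markers of leukocytes, endothelium, fibroblasts and epithelium, 13 lay under the percentile on all 4 arrays, Ptprc, Cd3e, Itgam and Epcam among them. Above it on all 4 arrays lay 9, the brightest being Cd68, a macrophage marker (mean log2 level 6.41 in mock and 6.26 in AT90ES cells), and Col1a2, a collagen of fibroblasts (6.22 and 6.08), with Fcer1g, Lyz2, Csf1r and Col1a1 also among them. Their summed log2 level was 119.6 to 123.1 in mock and 117.2 to 119.7 in AT90ES cells, and limma called 0 of the 25, with 2 lower at an unadjusted p under 0.05. The part of other cells in the rises of the 4 genes was not tested. Levels in a bulk sample cannot tell a rise in every cell from a larger rise in some of them.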

How the data were processed

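Each array received labelled cDNA made from 300 ng of RNA, per the labels. The authors deposited log2 levels for each probe on each array, and RMA is the method that the submitters' processing notes name, with no software or settings given. RMA equalises the arrays, so fold changes are relative to the other genes. Of 41345 probes, 23521 have 1 gene symbol, 1814 have several and 16010 have none in the platform annotation; only the first were used. For 1082 genes with more than 1 probe the one with the highest mean stood for the gene.

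The groups were compared with limma 3.58.1 in R 4.3.3 (lmFit, eBayes, no filter), using two-sided p-values adjusted by Benjamini-Hochberg over 22180 genes at 0.05. All adjusted p-values come from limma, from this fit unless another setting is named. The script was tested on data simulated from the fitted levels and spread with independent noise. Such data check the code and cannot show whether the replicates were independent. Each gene had 2 residual degrees of freedom and 3.70 from the spread shared across genes. Background was the 95th percentile of olfactory receptor genes. For the fold given as "at least", each mock level was replaced by that percentile where it was higher.

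The members and gene lists were chosen with earlier results of these data known. Named in each list were up to 4 members past the threshold, or the 2 with the highest mean level, plus Stat2, Irf9, Irf7, Ifnb1, Cmpk1, Samhd1, Ciao1, Vapa and Fdps, the locus neighbours and the 3 genes nearest to each member. Alternatives were other scalings, spreads, filters and probe rules, a replicate block, and leaving out each array. The number of arrays limits the precision.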

Additional observations from a re-analysis of the deposited data

How the results depend on the processing

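The direction of Mx1, Mx2, Rsad2 and Cmpk2 held under all 13 alternatives, and Mx2 (4.33 to 4.50), Rsad2 (4.20 to 4.30) and Cmpk2 (2.37 to 2.60) passed in each. The highest adjusted p among these was 0.00722 for Mx2 and Rsad2 and 0.0389 for Cmpk2. The direction was largely fixed in advance. Several alternatives changed only the spread or the tests and left the fold changes as they were. Leaving out an array cannot reverse groups that do not overlap. Mx1 passed in 9 of 13. The log2 fold change of Mx1 was 2.84 with every probe tested separately (limma adjusted p = 0.217). There, 41345 probes were tested and the SE was 0.35 against 0.32 as reported. With quantile normalization repeated it was 2.81 (limma adjusted p = 0.0572). The cause of either loss was not tested. When each array was left out, the log2 fold change ran from 2.36 to 3.31. Those fits rest on fewer arrays, the lone array being assumed to vary like the other group. The number of genes called higher was 165 with dim probes left out, 30 with every probe tested separately, 431 with an intensity trend and 32 to 47 without each array, against 92; genes called lower numbered 1 with arrays centred on the median, 6 with dim probes left out and 162 with an intensity trend. Among 61 other genes of the lists, loci and pattern comparisons, 827 of 847 recomputed values stayed on their side of the threshold and 0 of the called ones changed sign. Of 308 recomputed counts over gene lists, 300 lay within 1.5 times the reported count and 8 did not. Only the counts of risen antiviral genes (23) and risen signalling genes (3) were reported above 0. Most of the 300 were counts of 0 that stayed 0, so this share says little of the counts above 0. Scaling moved the median of all genes by -0.04 to 0.03.

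The deviations of arrays with the same replicate number correlated at -0.22 over genes, so the numbers were not taken to pair the arrays. With the replicate number as a block, 85 genes were called higher and Mx1 stood at 2.84 on the log2 scale (adjusted p = 0.00143), while Irf1, of the signalling list, and Irgm2 passed (adjusted p = 0.0488 and 0.00802). With the crossed pairing, chosen after the data were seen, 59 genes were called higher and 3 of the 4 genes passed; the calls of Mx1 (adjusted p = 0.082) and Irf9 (adjusted p = 0.0525) were lost.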
